A study of Mus musculus with 24 samples.

Results

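Resting T helper 1 (Th1) cells that had been primed with 0.5 µM I-BET-762 were compared with resting cells primed with either of 2 controls, the compound Control-768 or the solvent DMSO. By sample title, 3 arrays of I-BET-762 cells and 6 control arrays (3 of Control-768, 3 of DMSO) entered the comparison, which is 9 of the 24 arrays of the series. All cells were CD4+ T cells of C57BL/6 mice with the 2D2 transgenic T cell receptor in every group, controls included, and receptor usage was not measured. They were primed under Th1 conditions on plates coated with anti-CD3 and anti-CD28 with a compound or DMSO in the medium, taken off the plates after 48 h and expanded for 2 days, and RNA was taken without a new stimulus. The remaining arrays hold resting cells at 0.25 µM I-BET-762 and all 4 treatments after 4 h of restimulation on the same antibodies (activated cells). No source used here states the dose of Control-768 or whether the compounds were still present when RNA was taken. The labels do not say whether a replicate is 1 mouse, a pool of mice or a separate culture, so p-values measure the spread between these samples, part of which may be technical.

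I-BET-762 occupies the acetyl-lysine pocket of BET bromodomain proteins such as BRD2 and BRD3. Proteins of this family bind acetylated histones at promoters and enhancers and help to recruit the elongation kinase P-TEFb, which releases paused RNA polymerase II. P-TEFb is held inactive by HEXIM1, and MYC is a widely studied gene whose transcription depends on BET proteins in many blood cell types. Th1 cells are the helper T cells that make interferon gamma under the transcription factor T-bet (Tbx21).

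Expression was read as linear array intensities, which were transformed as log2(intensity + 16). Changes are given as log2 differences, I-BET-762 minus controls, with the standard error (SE) of a limma model, and a gene was taken as changed at a Benjamini-Hochberg adjusted p under 0.05 over 18193 genes. The 9 arrays had median intensities of 37.5 to 44.4 in I-BET-762 cells and 38.0 to 40.9 in control cells, and 29.1% to 30.8% of probe sets lay under 16. The arrays numbered 3 stood apart in all 3 resting groups compared: the spread of their genes around the group means (SD of log2 values) was 0.282 to 0.333, against 0.191 to 0.229 for the numbers 1 and 2. Arrays with the same number deviated together over 9 pairs of arrays. Correlations were 0.197 to 0.307 in pairs with an I-BET-762 array, and 0.44 to 0.699 between Control-768 and DMSO. These pairs are not independent, because the 3 deviations of a gene within a group cancel, and arrays of different numbers were not compared. The model holds the replicate number as a block, which these correlations alone cannot justify. The CD4 T cell markers Cd3e, Cd3d, Cd3g, Cd247, Cd4, Cd2, Cd5, Thy1 and Cd28 all had mean intensities over 500, and the summed level of the list was 42900 to 50800 in I-BET-762 cells and 40500 to 41600 in control cells. B cell markers (9 measured) summed to 138 to 156 in I-BET-762 cells and 118 to 176 in control cells, with every member's mean under 50. Myeloid markers summed to 318 to 347 in I-BET-762 cells and 284 to 338 in control cells, and the 3 NK cell markers measured to 63.0 to 130 in I-BET-762 cells and 72.6 to 96.0 in control cells. Among the myeloid markers Fcgr3 rose (mean intensity 23.4 in I-BET-762 cells and 6.78 in control cells, adjusted p = 0.049), and among the NK cell markers Klre1 fell (6.89 and 18.5, adjusted p = 0.0264). The 10 dendritic cell and MHC class II markers summed to 1680 to 2060 in I-BET-762 cells and 1680 to 2730 in control cells, and 2 of them fell: H2-Eb1 (49.6 in I-BET-762 cells and 102 in control cells, adjusted p = 0.0017) and Cd74 (42.4 and 66.6, adjusted p = 0.0163). Of 7 mast cell and basophil markers and 6 erythroid and platelet markers, 0 passed. In bulk RNA, fewer cells of a type and less RNA per cell cannot be told apart.

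With 0.5 µM I-BET-762, 1627 of 18193 genes changed (8.94%): 650 rose (3.57%) and 977 fell (5.37%). Changes of at least 2-fold numbered 292, of which 78 were rises and 214 were falls. The median change of all genes was -0.006. For 970 of the changed genes (431 that rose, 539 that fell) the 3 I-BET-762 arrays did not overlap the 6 control arrays. Such separation was seen in 8.67% of all genes, with I-BET-762 higher in 4.22% and lower in 4.45%. Under quantile normalization the changed genes were 952 higher and 919 lower, 50.9% higher against 40% in the values as deposited. The excess of falls in the count of all changed genes thus depends on the scaling. The number of changed genes depends on the block and on single replicates: it was 491 without the block, 421 without the arrays numbered 1, 553 without those numbered 2 and 1806 without those numbered 3. A core of 229 genes (69 that rose, 160 that fell) passed in all 25 alternative analyses, quantile normalization included. Counts over gene lists move likewise: without the block no list had more than 6 genes past the threshold in either direction, and counts without the arrays numbered 3 are given where they differ most.

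**Figure D1:**
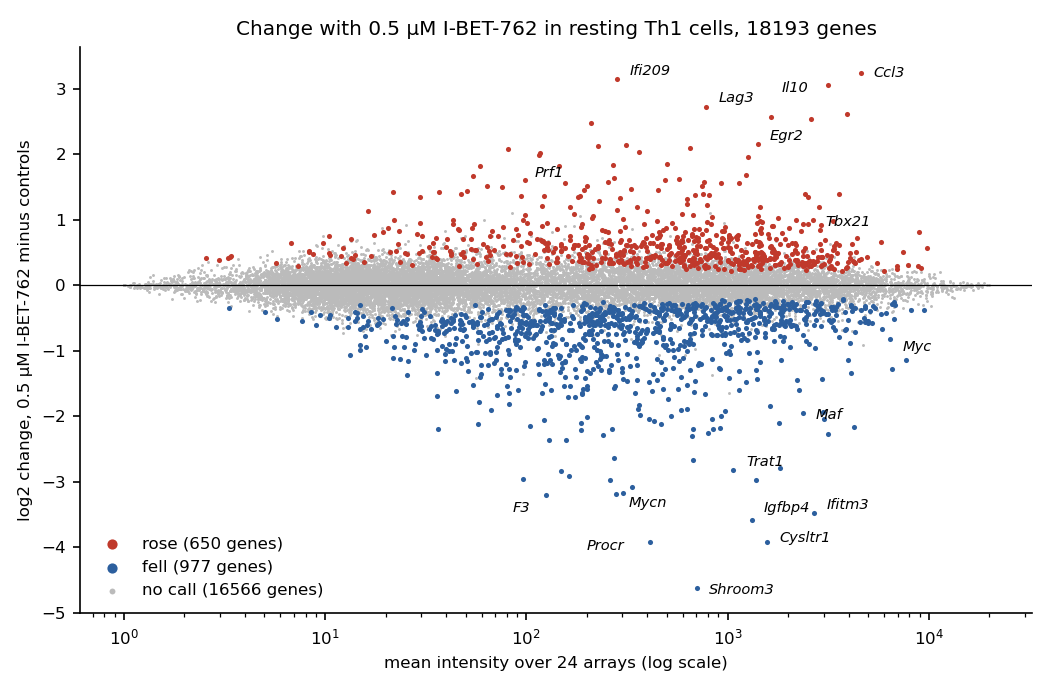
Log2 change with 0.5 µM I-BET-762 in resting cells (vertical axis) against the mean intensity over 24 arrays (horizontal axis, log scale), 1 point per gene. The 650 genes that rose are red, the 977 that fell are blue and the others grey. The falls reach further from 0 than the rises, with Shroom3 at -4.62 and Ccl3 at 3.25.

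Among the targets of the compound and their partners, few transcripts moved. Of 19 measured genes of the BET and P-TEFb list, 2 rose, Hexim1 and Ell2, and 0 fell. That is 10.5% of the list, close to the 8.94% of all genes, and the list median was 0.07. Brd2 had intensities of 3349, 3354 and 3816 in I-BET-762 cells (replicates 1 to 3), against 3105 to 3296 (median 3158) in control cells, and did not pass (log2 change 0.14 ± 0.10, adjusted p = 0.491, 95% interval -0.08 to 0.36). Brd3 was at 1031, 1087 and 868, against 1008 to 1170.1 (median 1129), with a change of -0.15 ± 0.07 (adjusted p = 0.253). Hexim1, the inhibitor of P-TEFb, had 1877, 1684 and 1675 in I-BET-762 cells, against 858 to 1362 (median 1239) in control cells. All 3 treated arrays lay above all 6 control arrays, and Hexim1 rose by 0.59 ± 0.11 (adjusted p = 0.00214; without the block, adjusted p = 0.0624). Ell2, an elongation factor on the same list, rose by 1.03 ± 0.16 (adjusted p = 0.00054). Without the block its adjusted p was 0.0811.

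MYC itself differed strongly between replicate numbers. Myc had 4412, 4614 and 611 in I-BET-762 cells, against 1754 to 5978 (median 5914) in control cells, where the 2 arrays numbered 3 held 2183 and 1754. The groups overlapped over all numbers, but within each number the treated array was lower, by log2 differences of -0.42, -0.37 and -1.65 for the numbers 1 to 3. Myc fell in the blocked model, with a log2 change of -0.81 ± 0.17 (adjusted p = 0.00678); without the block the adjusted p was 0.579. Mycn, the related N-MYC gene, fell much further on the log2 scale. It had 32.5, 25.8 and 9.8 in I-BET-762 cells, against 176 to 459 (median 384) in control cells, with no overlap and a change of -3.19 ± 0.18 (adjusted p = 3.65e-08). Its other 2 probe sets, both dimmer, showed 0.13 and 0.13. Of 12 genes of the MYC network, 3 fell (Myc, Mycn, and Mxi1, a MAX partner that opposes MYC, at -0.50 ± 0.12; without the block, adjusted p = 0.491) and 0 rose. Without the arrays numbered 3, 6 of the 12 fell.

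Of 13 measured genes reported elsewhere to respond to BET inhibitors, 6 fell (Myc, Ccr2, Il7r, Bcl2, Cdk6 and Myb) and 1 rose (Hexim1), while 6 of the 13 changes were positive and 7 negative, with a median of -0.29. This count depends on the fit: 4 fell and 3 rose without the arrays numbered 3, 1 fell and 2 rose with the compared groups alone, and 0 passed without the block. Ccr2 encodes the receptor for CCL2 that guides monocytes and effector T cells to inflamed tissue. Ccr2 had 77.6, 95.4 and 458 in I-BET-762 cells, against 422 to 1425 (median 516) in control cells, and fell with a log2 change of -2.04 ± 0.25 (adjusted p = 6.08e-05; without the block, adjusted p = 0.0614). Only the treated array numbered 3 reached into the control range. Cdk6, a G1 kinase, had 5887, 6036 and 2210.5 in I-BET-762 cells, against 4914 to 6869.5 (median 6630.0) in control cells, and changed by -0.51 ± 0.14 (adjusted p = 0.0309); its adjusted p was 0.155 without the arrays numbered 3 and 0.329 without the block.

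Of the 12 largest rises among the named genes, 3 were CC chemokines. CCL3, CCL4 and CCL5 attract leukocytes and are released by activated T cells and NK cells. Ccl3 had 719.8, 705 and 158 in I-BET-762 cells, against 24.3 to 45.8 (median 30.0) in control cells. Ccl4, its neighbour on chromosome 11, had 625, 512 and 375, against 41.4 to 100.2 (median 71). Ccl5 had 1392, 1039.8 and 6459, against 199.9 to 661 (median 330.2). No treated array overlapped a control array in any of the 3 genes, and the spread among treated arrays was wide, with Ccl3 lowest and Ccl5 highest in the array numbered 3. The log2 changes were 3.25 ± 0.31 for Ccl3 (adjusted p = 4.99e-06), 2.62 ± 0.25 for Ccl4 (adjusted p = 5.3e-06) and 2.58 ± 0.21 for Ccl5 (adjusted p = 9.24e-07). The fourth of the 16 chemokines that passed, Cxcl11, an interferon-induced ligand of CXCR3, fell (-0.59 ± 0.17, adjusted p = 0.0451), but passed in only 6 of 25 alternatives, and its other, dimmer probe set showed 0.51. The median of the 16 was -0.03. The start region of Ccl3, the largest rise, is shown for reference (RefSeq, GRCm38.p6, chr11:83649349-83649628, minus strand, 250 bases before the transcription start and 30 after it); capitals mark its 1 match to the RUNX motif TGTGGT, searched on both strands in the 300-base window, a motif held by 13.7% of all promoters searched.
Ccl3: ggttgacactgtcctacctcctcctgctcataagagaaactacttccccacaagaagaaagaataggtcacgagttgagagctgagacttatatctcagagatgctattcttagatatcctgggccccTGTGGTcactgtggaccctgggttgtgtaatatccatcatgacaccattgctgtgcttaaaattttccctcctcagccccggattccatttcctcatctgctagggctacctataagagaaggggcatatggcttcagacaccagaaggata

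Cytokine genes split. Of 22 measured, 2 rose, 6 fell and the median was -0.24. Il10, which encodes the anti-inflammatory cytokine interleukin 10, had 2023, 788 and 952 in I-BET-762 cells, against 77.1 to 196 (median 122) in control cells, and rose by 3.05 ± 0.25 (adjusted p = 1.15e-06). Every treated array lay above every control array. Ifng, the signature Th1 cytokine, had 2343, 789 and 1636, against 523 to 1470.5 (median 702); the groups overlapped and its level followed the replicate number, but within each number the treated array was higher, by 0.81, 0.29 and 1.35. Ifng rose by 0.82 ± 0.20 in the blocked model (adjusted p = 0.0159), with an adjusted p of 0.299 without the block and 0.0697 without the arrays numbered 3.

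The cytokines that fell were Ebi3, Lta, Il3, Il24, Lif and Tgfb1. Ebi3, the shared subunit of interleukins 27 and 35, had 215, 324 and 115 in I-BET-762 cells, against 680.4 to 1248 (median 1193) in control cells (log2 change -2.26 ± 0.16, adjusted p = 2.88e-07). Lta, lymphotoxin alpha, had 1404, 1898 and 182, against 2064 to 5159 (median 4581) (log2 change -2.17 ± 0.30, adjusted p = 0.000213). In both genes all treated arrays lay below all control arrays. Il3, a growth factor for blood progenitors and mast cells, had 6.94, 7.86 and 3.44 in I-BET-762 cells, against 3.54 to 191 (median 154) in control cells (log2 change -2.05 ± 0.54, adjusted p = 0.0253; without the block, adjusted p = 0.314). The treated arrays were all near the bottom of the scale, and the arrays numbered 3 held 3.54 and 9.77 in control cells too. Its neighbours on chromosome 11 are Csf2, which encodes GM-CSF, and Acsl6, a long-chain acyl-CoA synthetase. Acsl6 had 26.8, 33.5 and 7.66 in I-BET-762 cells, against 70.5 to 529 (median 495) in control cells, and changed by -2.97 ± 0.25 (adjusted p = 1.46e-06; a dimmer probe set, -0.32). Csf2 had 8.92, 12.2 and 14.4, against 7.54 to 47.1 (median 31.9), and did not pass (log2 change -0.66 ± 0.29, adjusted p = 0.192).

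Cytokine production is named in the study's title, and 4 further cytokine genes did not pass in these unstimulated cells. Il2 was dim, with 24.9, 7.43 and 20.5 in I-BET-762 cells, against 13.1 to 28.9 (median 18.2) in control cells (log2 change -0.11 ± 0.25, adjusted p = 0.858, 95% interval -0.64 to 0.41). Il17a was as dim, with 18.5, 12.2 and 20.4, against 1.96 to 40.6 (median 15.6) (log2 change 0.09 ± 0.30, adjusted p = 0.917). Tnf had 399, 228 and 216, against 151 to 269 (median 239) (log2 change 0.30 ± 0.17, adjusted p = 0.333, 95% interval -0.06 to 0.66). Il21, a helper cytokine for B cells, had 404, 258 and 219, against 299.9 to 655 (median 377) (log2 change -0.44 ± 0.26, adjusted p = 0.35). For all 4 the groups overlapped.

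**Figure D2:**
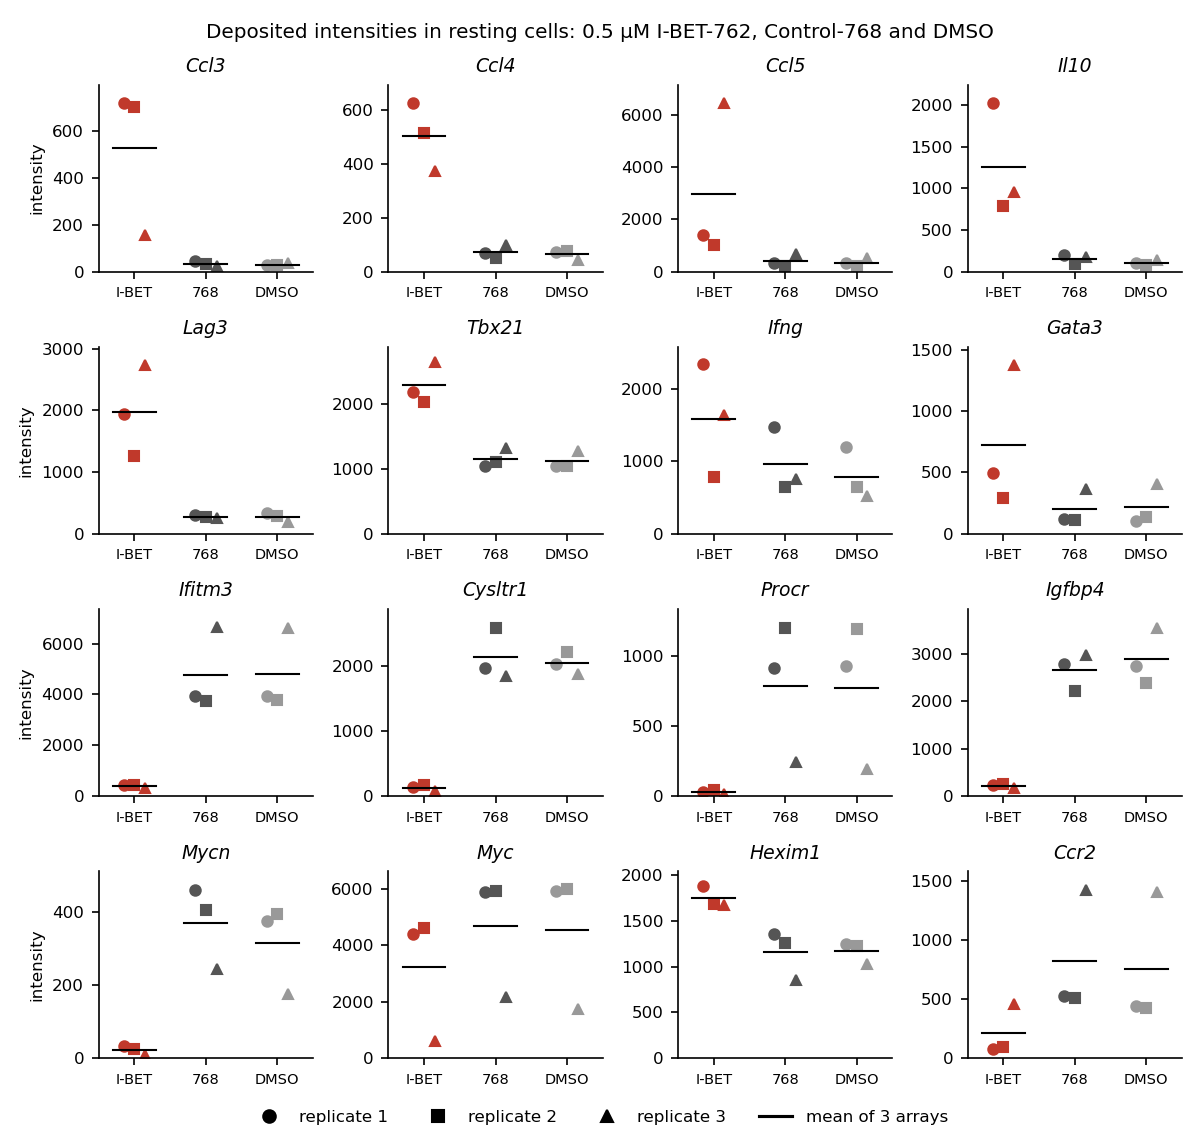
Deposited intensities (vertical axes, linear, from 0) of 16 genes in resting cells, by group: 0.5 µM I-BET-762 (red), Control-768 (dark grey) and DMSO (light grey). Each symbol is 1 array, its shape the replicate number, and lines are means of 3 arrays. Ccl3, Il10, Lag3, Ifitm3, Cysltr1, Igfbp4 and Mycn separate without overlap, while Myc, Ifng, Gata3 and Ccr2 differ widely between replicate numbers.

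Receptors that guide cell movement changed in both directions: of 23 chemokine and lipid chemoattractant receptors, 5 fell, 3 rose and the median was -0.20 (7 fell and 1 rose without the arrays numbered 3). Cysltr1, a receptor for cysteinyl leukotrienes, had 132, 170.2 and 78.1 in I-BET-762 cells, against 1839.5 to 2589.8 (median 1999) in control cells. It fell with a log2 change of -3.93 ± 0.20 (adjusted p = 1.2e-08), and every control array lay far above every treated array. Ltb4r1, a receptor for leukotriene B4, fell less, with 469, 519.8 and 629, against 859.9 to 1065 (median 953) (log2 change -0.81 ± 0.07, adjusted p = 2.95e-06). Cxcr2, a chemokine receptor best known in neutrophils and outside this list, had 11.2, 20.3 and 5.72, against 74.7 to 368 (median 290.1) (log2 change -2.96 ± 0.28, adjusted p = 4.61e-06). Ccr4 and the Th1-associated receptor Cxcr3 also fell, and Cxcr6, S1pr4 and Gpr18 rose. All 5 of these had overlapping groups.

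A cluster of interferon-induced antiviral genes fell together. The IFITM proteins are small membrane proteins that block virus entry, and Ifitm2, Ifitm1, Ifitm3 and Ifitm6 follow each other on chromosome 7. Ifitm3 had 424, 448 and 331 in I-BET-762 cells, against 3731 to 6630.5 (median 3932) in control cells. Ifitm1 had 414, 731 and 1087, against 2167 to 5612 (median 2277), and Ifitm2 had 570.3, 629 and 140.0, against 2188 to 3354 (median 2653). No group overlapped, and the log2 changes were -3.48 ± 0.23 for Ifitm3 (adjusted p = 1.49e-07), -2.10 ± 0.13 for Ifitm1 (adjusted p = 9.45e-08) and -2.79 ± 0.36 for Ifitm2 (adjusted p = 0.000106). Ifitm6, looked up because of its position, was dimmer, with 58.4, 65.4 and 37.9 in I-BET-762 cells, against 154 to 268 (median 197) in control cells, and fell as well (-1.65 ± 0.14, adjusted p = 1.94e-06). The genes are related in sequence, and the probe sets were not checked for cross-hybridization. The start regions of the 3 brightest are set side by side because the genes moved together (RefSeq, GRCm38.p6, 250 bases before the transcription start and 30 after it): Ifitm2 at chr7:140955932-140956211 on the minus strand, Ifitm1 at chr7:140967826-140968105 on the plus strand and Ifitm3 at chr7:141010715-141010994 on the minus strand. Capitals mark matches to the interferon response motif (2 copies of GAAA with any 2 bases between them) on either strand, a motif added to the search after these genes had been seen.
Ifitm2: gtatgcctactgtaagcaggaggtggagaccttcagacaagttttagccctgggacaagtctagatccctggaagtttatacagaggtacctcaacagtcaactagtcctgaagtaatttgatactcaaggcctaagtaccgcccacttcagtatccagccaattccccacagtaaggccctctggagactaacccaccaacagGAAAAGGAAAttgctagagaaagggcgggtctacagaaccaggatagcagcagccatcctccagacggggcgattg
Ifitm1: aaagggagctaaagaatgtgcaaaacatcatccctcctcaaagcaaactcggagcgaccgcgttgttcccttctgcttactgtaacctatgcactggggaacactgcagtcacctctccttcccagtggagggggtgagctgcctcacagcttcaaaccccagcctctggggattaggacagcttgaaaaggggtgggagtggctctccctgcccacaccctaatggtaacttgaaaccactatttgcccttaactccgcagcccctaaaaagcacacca
Ifitm3: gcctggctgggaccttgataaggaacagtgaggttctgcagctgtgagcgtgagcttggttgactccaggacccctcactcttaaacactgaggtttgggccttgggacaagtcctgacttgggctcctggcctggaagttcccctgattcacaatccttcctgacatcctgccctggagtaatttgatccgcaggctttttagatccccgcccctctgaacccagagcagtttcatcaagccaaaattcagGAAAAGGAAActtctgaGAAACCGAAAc
Ifitm3 holds 2 matches, Ifitm2 holds 1 and Ifitm1 holds 0 in its window. The motif stands in 3.02% of all promoters searched, against 3.33% of those of genes that fell and 3.69% of those of genes that rose; the 3 shares lie close together.

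Of 37 interferon-stimulated genes measured, 7 fell, 2 rose and the median was 0.00. The replicate numbers differed here, with medians of -0.19, -0.26 and 0.10 for the numbers 1 to 3. Without the arrays numbered 3, 12 fell, 2 rose and the median was -0.16. Besides the IFITM genes, Oas3, an antiviral oligoadenylate synthetase, fell, with 74.3, 57 and 69.8 in I-BET-762 cells, against 146 to 202 (median 183) in control cells (log2 change -1.23 ± 0.13, adjusted p = 1.58e-05), and so did Isg20, Bst2 and Ifih1. Gbp2 and Zbp1 rose. Zbp1, a nucleic acid sensor, had 1113, 902 and 1342, against 429 to 683 (median 480.4) (log2 change 1.07 ± 0.14, adjusted p = 0.000147). Ifi209, a member of the interferon-inducible PYHIN family that was in no list, showed the largest rise after Ccl3. It had 859.8, 393 and 3464 in I-BET-762 cells, against 74.5 to 173 (median 85.7) in control cells (log2 change 3.15 ± 0.27, adjusted p = 1.9e-06), with no overlap and its highest value in the treated array numbered 3.

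Transcription factors that define helper T cell lineages rose for more than 1 lineage at once. Tbx21, the Th1 master regulator T-bet, had 2188, 2026 and 2638 in I-BET-762 cells, against 1038 to 1321 (median 1070.3) in control cells, and rose by 1.0 ± 0.10 (adjusted p = 5.47e-06). Gata3, the Th2 master regulator, had 493, 292 and 1374, against 105 to 402 (median 128); within each replicate number the treated array was higher, by 1.99, 1.13 and 1.80, and Gata3 rose by 1.64 ± 0.13 (adjusted p = 1.11e-06; without the block, adjusted p = 0.139). Batf, an AP-1 factor needed by Th17 and follicular helper cells, rose by 0.85 ± 0.08 (adjusted p = 2.95e-06). Bcl6, the follicular helper regulator, rose by 1.15 ± 0.18 (adjusted p = 0.000617, or 0.22 without the block). It had 247, 187 and 1111 in I-BET-762 cells, against 93.5 to 306 (median 136) in control cells. Within the numbers 1 to 3 the treated array was higher by 0.79, 0.79 and 1.85, and a dimmer probe set of Bcl6 showed 0.08. Other lineage factors fell. Maf, which acts in Th2, Th17 and Il10-producing cells, had 719, 503 and 1989.9 in I-BET-762 cells, against 2379 to 5519 (median 3088) in control cells (log2 change -1.95 ± 0.15, adjusted p = 4.83e-07), with no overlap. Hlx, a homeobox factor that cooperates with T-bet, had 88.3, 117 and 100.5, against 237 to 339 (median 277) (log2 change -1.32 ± 0.13, adjusted p = 8.35e-06). Rora, a nuclear receptor of the Th17 program, had 179, 182 and 773, against 454 to 860.2 (median 552) (log2 change -0.99 ± 0.18, adjusted p = 0.00232; without the block, adjusted p = 0.169).

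By list, 4 of 18 Th1 genes rose (Tbx21, Ifng, Il18rap, Havcr2) and 3 fell (Hlx, Cxcr3, Ifngr2), with a median of 0.10. Of 13 Th2 genes, 1 rose (Gata3) and 4 fell (Maf, Nfil3, Ccr4, Il24), with a median of -0.26 (6 fell and 2 rose without the arrays numbered 3). Of 8 Th17 genes, 2 rose and 1 fell. Of 15 genes of regulatory T cells, 2 rose (Nrp1, Izumo1r) and 2 fell (Ebi3, Ikzf4). Of 12 genes of follicular helper T cells, 4 rose (Bcl6, Pdcd1, Tox2, Btla) and 0 fell, with a median of 0.01, but without the arrays numbered 3, 4 rose and 3 fell. The Th2 list had a negative median although its master regulator rose. The lists share genes with each other.

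Of 14 inhibitory receptors and exhaustion factors, 6 rose, 0 fell and the median was 0.31. Lag3, an inhibitory receptor for MHC class II, had 1938, 1268 and 2732 in I-BET-762 cells, against 191 to 330.2 (median 287) in control cells. Havcr2 (TIM-3) had 211, 172 and 336, against 27.9 to 76.8 (median 37), and Pdcd1 (PD-1) had 430.0, 418 and 611, against 106 to 181 (median 161). In all 3 genes every treated array was above every control array. The log2 changes were 2.73 ± 0.18 for Lag3 (adjusted p = 1.1e-07), 2.04 ± 0.23 for Havcr2 (adjusted p = 2.67e-05; without the block, adjusted p = 0.0809) and 1.61 ± 0.19 for Pdcd1 (adjusted p = 3.19e-05). Tox2, a nuclear factor linked to exhaustion and to follicular helper cells, rose by 1.82 ± 0.16 (adjusted p = 1.91e-06), though a dimmer probe set of the gene showed -0.20. Its relative Tox and the receptor Btla completed the 6.

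Of 18 measured genes of killing, 4 rose (Nkg7, Prf1, Ctsw, Gzmk), 1 fell (Lamp1) and the median was 0.09. Nkg7, a granule membrane protein, had 5077, 4266 and 7099 in I-BET-762 cells, against 1489.8 to 2663 (median 2038) in control cells (log2 change 1.40 ± 0.09, adjusted p = 9.45e-08). Prf1, the pore-forming perforin, had 346, 264 and 209, against 52.8 to 112 (median 94.5) (log2 change 1.46 ± 0.12, adjusted p = 1.15e-06). Neither overlapped. Of 13 lectin-like receptors typical of NK cells, 4 fell, 0 rose and the median was -0.17. Klrk1 (NKG2D) had 23.9, 17.8 and 30.3 in I-BET-762 cells, against 61.2 to 91.6 (median 83.7) in control cells (log2 change -1.28 ± 0.25, adjusted p = 0.00414), and Klrb1f had 37.4, 32.3 and 157, against 126 to 364 (median 222) (log2 change -1.60 ± 0.18, adjusted p = 3.24e-05). Summed CD8 T cell markers were 527 to 600 in I-BET-762 cells and 412 to 601 in control cells, and the part of other cell types in these results was not tested.

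The cells had not been restimulated, yet some genes that T cell receptor signals induce rose. On the list of immediate early and TCR-induced genes, 12 of 34 rose, 3 fell (Gadd45b, Batf3, Myc), 19 did not pass and the median was 0.34. Without the block 3 rose and 0 fell, and without the arrays numbered 3, 13 rose and 5 fell. Egr2, a zinc finger factor induced by the receptor and linked to anergy, had 1200.5, 884 and 1085 in I-BET-762 cells, against 124 to 379.5 (median 234) in control cells (log2 change 2.16 ± 0.20, adjusted p = 4.17e-06). Its relative Egr1 had 8523, 3403 and 4918, against 233 to 4770.3 (median 792) (log2 change 2.54 ± 0.34, adjusted p = 0.000144; without the block, adjusted p = 0.0653). The Egr2 groups did not overlap, and the Egr1 groups did. Of 22 genes that restrain MAP kinase and G protein signals, 8 rose, 1 fell (Rgs1), 13 did not pass and the median was 0.24 (3 rose and 0 fell without the block). The MAP kinase phosphatase Dusp4 had 1001, 684 and 498 in I-BET-762 cells, against 164 to 258 (median 203) in control cells (log2 change 1.68 ± 0.19, adjusted p = 2.63e-05; without the block, adjusted p = 0.0683). The related Dusp6 had 2011, 1418 and 1418, against 296 to 1033 (median 701) (log2 change 1.38 ± 0.16, adjusted p = 3.48e-05; without the block, adjusted p = 0.0526). Rgs16, which shortens signals of chemokine receptors, had 210.4, 278 and 419.5, against 45.5 to 77.2 (median 65.1) (log2 change 1.96 ± 0.22, adjusted p = 2.8e-05).

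Components of the T cell receptor showed smaller shifts. Of 23 genes of the complex and proximal signalling, 7 rose, 2 fell and the median was 0.25, or 0.12, 0.08 and 0.48 for the numbers 1 to 3. Without the arrays numbered 3, 5 rose and 3 fell, with a median of 0.08. The signalling chains Cd3e, Cd247, Cd3g and Cd3d were among the rises, with Cd247 at 0.43 ± 0.09 (adjusted p = 0.00559), beside Malt1, Ubash3b and Dgka. Cd3d passed in only 7 of 25 alternatives. Cd5, a receptor that dampens TCR signals, fell, with a log2 change of -0.63 ± 0.13 (adjusted p = 0.00669; without the block, adjusted p = 0.352). Trat1, an adaptor that associates with the receptor, was outside the list. It had 196, 272 and 182 in I-BET-762 cells, against 1209 to 2188 (median 1534) in control cells, and fell with a log2 change of -2.82 ± 0.18 (adjusted p = 9.45e-08). Of 26 cytokine receptors and JAK-STAT feedback genes, 5 rose and 2 fell (Il7r, Cish), with a median of 0.14. Socs3, which shuts off signalling through gp130, rose by 1.07 ± 0.14 (adjusted p = 0.000117), Il21r by 0.75 ± 0.08 (adjusted p = 1.45e-05) and Il2rb by 0.79 ± 0.15 (adjusted p = 0.00285).

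Nuclear factors downstream of the receptor were mixed. Of 18 AP-1 and related factors, 4 rose (Batf, Junb, Fos, Bach1) and 5 fell (Maf, Batf3, Atf3, Nfil3, Mafg), with a median of 0.02. Without the arrays numbered 3, 2 rose and 5 fell, and without the block 1 rose and 3 fell. Fos passed in 10 and Bach1 in 12 of 25 alternatives. Atf3, a stress-induced factor, had 270.0, 268 and 156 in I-BET-762 cells, against 382 to 599.8 (median 554) in control cells (log2 change -1.19 ± 0.17, adjusted p = 0.000313). Of 18 NF-kB genes, 4 rose (Nfkbiz, Bcl3, Rel, Tnip2) and 0 fell, with a median of 0.17. The medians were 0.03, 0.00 and 0.54 for the numbers 1 to 3, and without the arrays numbered 3, 2 rose and 2 fell, with a median of -0.03. Nfkbiz, a nuclear inhibitor-like cofactor, had 1702, 494 and 2012, against 240.2 to 873 (median 431) (log2 change 1.35 ± 0.20, adjusted p = 0.000334; without the block, adjusted p = 0.161). Of 22 ligands and receptors of the TNF superfamily, 6 fell and 3 rose. Without the block 1 fell and 2 rose, and Cd70 passed in 11 and Cd27 in 9 of 25 alternatives. In the blocked model the rises were the ligand Tnfsf4 and the receptors Tnfrsf1b and Cd27. The falls were all ligands: Lta, Tnfsf8 (CD30 ligand, -1.17 ± 0.11; without the block, adjusted p = 0.0615), Tnfsf11 (RANKL, -1.59 ± 0.18), Tnfsf14, Tnfsf9 and Cd70. Tnfsf11 had 99, 100.4 and 33.1 in I-BET-762 cells, against 119.8 to 360.0 (median 315) in control cells (adjusted p = 2.8e-05; without the block, adjusted p = 0.0873).

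Several of the 12 largest falls lay outside the T cell programs. Shroom3, an actin-binding protein that shapes epithelial cells, had 27.5, 95.2 and 10.6 in I-BET-762 cells, against 843 to 1587 (median 1289.8) in control cells (log2 change -4.62 ± 0.33, adjusted p = 2.79e-07). Procr, the endothelial protein C receptor, which also marks some cytokine-producing T cells, had 26, 44.8 and 13.5, against 190.3 to 1197 (median 918) (log2 change -3.92 ± 0.32, adjusted p = 9.24e-07). F3, tissue factor, which starts blood clotting, had 4.15, 6.27 and 4.14, against 104 to 236 (median 184) (log2 change -3.20 ± 0.24, adjusted p = 4.57e-07). None of the 3 overlapped, and F3 was under 16 in every treated array, so its change is compressed by the added constant. Igfbp4, which binds insulin-like growth factors and is high in naive T cells, had 222, 248 and 174 in I-BET-762 cells, against 2205 to 3550.0 (median 2762) in control cells (log2 change -3.59 ± 0.15, adjusted p = 3.23e-09). Serpinf1, a secreted serpin, changed by -3.08 ± 0.16, Itpripl2 by -3.17 ± 0.16 and Enah, an actin regulator, by -2.98 ± 0.46 (adjusted p = 0.000591). The size of some of these changes depends on the probe set: 4 dimmer ones of Shroom3 ranged from -3.62 to -0.40, and 5 of Enah from -2.71 to -0.11.

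Among the 12 largest rises outside the lists were proteins of the cytoskeleton and the cell surface. Pls1, an actin bundling protein, had 705, 522 and 351 in I-BET-762 cells, against 46.8 to 111 (median 82.4) in control cells (log2 change 2.48 ± 0.22, adjusted p = 2.09e-06). Chst2, a sulfotransferase that modifies glycans, had 622, 418 and 378, against 69.5 to 128 (median 83.5) (log2 change 2.15 ± 0.14, adjusted p = 1.1e-07). Ajuba, a LIM domain scaffold, had 562, 325 and 559.8, against 64.9 to 117 (median 103) (log2 change 2.13 ± 0.19, adjusted p = 2.82e-06). All 3 separated fully. Gpr160, an orphan receptor, rose by 2.08 ± 0.20 (adjusted p = 5.04e-06) and Plek, pleckstrin, a protein kinase C substrate, by 2.10 ± 0.42 (adjusted p = 0.00462). Of 23 integrins, selectins and other adhesion genes, 5 rose (Alcam, Itga4, Itgb1, Selp, Cd48), 3 fell (Itga7, Itga3, Itgav) and the median was 0.00. Alcam, the ligand of CD6, had 2408, 2301 and 1686 in I-BET-762 cells, against 776 to 1261 (median 1138) in control cells (log2 change 1.0 ± 0.09, adjusted p = 1.46e-06). Itga7 had 170.5, 179 and 150.1, against 458 to 656 (median 486) (log2 change -1.58 ± 0.17, adjusted p = 1.8e-05). Neither overlapped.

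Of 18 genes of naive and quiescent T cells, 6 rose (Klf2, Klf3, Foxo1, Foxp1, Btg1, Btg2), 2 fell (Il7r, Igfbp4) and the median was 0.19. Klf3, a repressor of the Kruppel-like family, had 471, 372 and 480.1 in I-BET-762 cells, against 77.8 to 144 (median 121) in control cells (log2 change 1.82 ± 0.18, adjusted p = 5.59e-06), while 6 dimmer probe sets ranged from -0.10 to 1.14. Foxo1, which maintains quiescence, had 2033, 1730.1 and 2904, against 1320.3 to 1593 (median 1444) (log2 change 0.57 ± 0.11, adjusted p = 0.00241; without the arrays numbered 3, adjusted p = 0.0602). The list median was 0.12, 0.05 and 0.59 within the replicate numbers 1 to 3, and the balance of calls turned with the arrays used: 3 rose and 5 fell without the arrays numbered 3, and 2 rose and 1 fell without the block. Of 16 BCL2 family genes, 0 passed without the block. In the blocked model 3 fell, Bcl2 (passing in 10 of 25 alternatives), Bak1 (in 12) and Bcl2l2 (in 21), and 1 rose. That one was Bcl2l11, which encodes the death-promoting BIM, with 1471, 1077 and 5694 in I-BET-762 cells, against 763 to 1156 (median 816) in control cells (log2 change 1.20 ± 0.24, adjusted p = 0.0044; without the block, adjusted p = 0.22). Id2, an inhibitor of E proteins, rose by 0.49 ± 0.12 (adjusted p = 0.0142; 0.484 without the block and 0.0799 without the arrays numbered 3). Its relative Id3 fell with -1.03 ± 0.15 (adjusted p = 0.000428; without the block, 0.257) and Msc, a repressor of the same protein class, with -2.12 ± 0.26 (adjusted p = 5.34e-05).

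Growth gene lists had their lowest medians in the replicates numbered 3. Of 40 ribosome biogenesis genes, 10 fell, 0 rose, 38 had a negative change and the median was -0.42. Within the replicate numbers 1 to 3 the list median was -0.17, -0.02 and -1.07, and without the arrays numbered 3 it was -0.09, with 3 falls. Gnl3 (nucleostemin) had 1777, 2338 and 450.5 in I-BET-762 cells, against 1476 to 2759 (median 2381) in control cells (log2 change -0.78 ± 0.19, adjusted p = 0.0157; without the block, adjusted p = 0.307). Its treated arrays numbered 1 and 2 lay within the control range. Of 40 MYC targets, 6 fell and 1 rose (Ccnd2), with a median of -0.34, or -0.04, 0.00 and -0.87 by number, and -0.03 without the arrays numbered 3. On the ATF4 and amino acid response list, 6 of 25 genes fell and 0 rose, with a median of -0.22. Asns, asparagine synthetase, had 1717, 1546 and 219, against 1194 to 3155 (median 2792) (log2 change -1.44 ± 0.34, adjusted p = 0.013; without the block, adjusted p = 0.139). For replication and S phase, 1 of 38 fell (Rfc3, -0.73 ± 0.14; without the block, adjusted p = 0.266), and the medians by number were 0.14, 0.06 and -0.49.

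**Figure D3:**
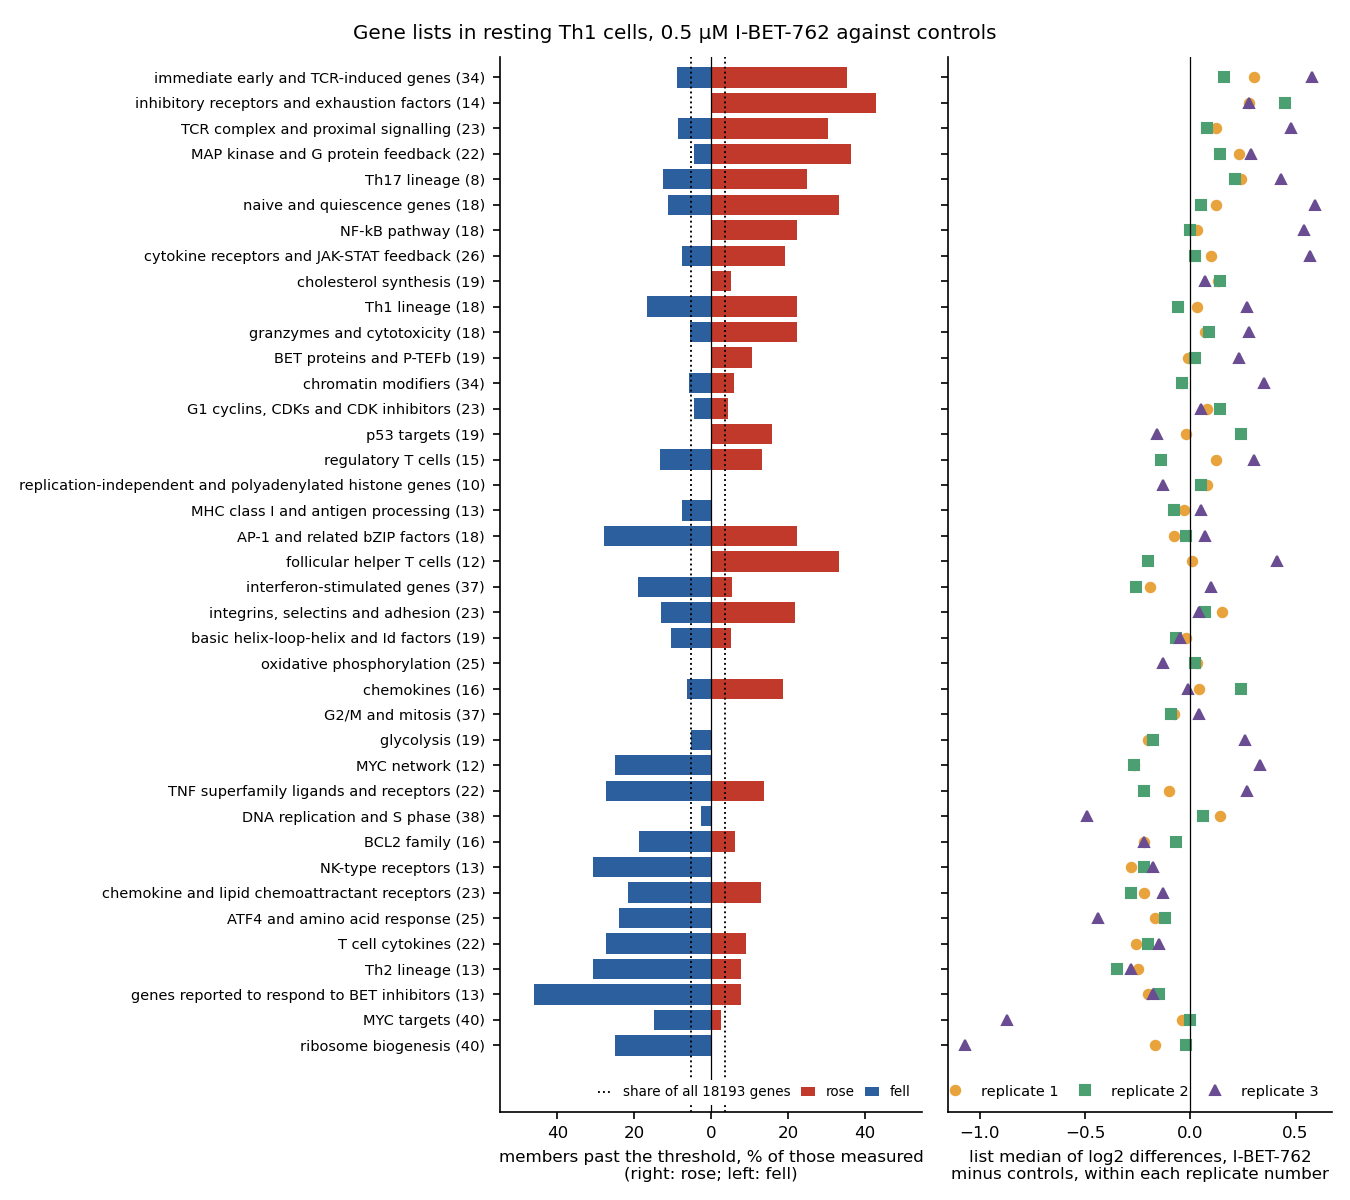
Left, the share of measured members of each gene list (number measured in brackets) that rose (red, to the right) or fell (blue, to the left) with 0.5 µM I-BET-762, with the shares of all 18193 genes (3.57% and 5.37%) dotted. Right, the list median of the log2 difference, I-BET-762 minus controls, within each replicate number. For ribosome biogenesis and MYC targets the number 3 lies far to the left of the others (-1.07 and -0.87), while for T cell cytokines and Th2 genes the 3 numbers lie close together.

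Further lists had shares of changed genes from 0% to 15.8%, beside 8.94% of all genes. Of 37 genes of G2/M and mitosis, 0 passed and the median was -0.03; of 25 genes of oxidative phosphorylation, 0 passed and the median was -0.03; and of 10 histone genes, 0 passed. Glycolysis had 1 fall among 19 (Aldoc, -0.81 ± 0.15), a share of 5.26%. Antigen processing with MHC class I had 1 fall among 13 (Psmb10), a share of 7.69%. Cholesterol synthesis had 1 rise among 19 (Cyp51), a share of 5.26%. G1 cyclins and kinases had 1 rise (Ccnd2) and 1 fall (Cdk6) among 23, a share of 8.7% that lies close to that of all genes. Without the block the adjusted p was 0.755 for Aldoc, 0.633 for Cyp51, 0.665 for Ccnd2 and 0.329 for Cdk6. Of 34 chromatin modifiers, 2 rose and 2 fell, a share of 11.8% against 8.94% of all genes. Sfmbt2, a polycomb group protein, had 219, 179.9 and 208 in I-BET-762 cells, against 49.6 to 61.6 (median 55.9) in control cells (log2 change 1.60 ± 0.13, adjusted p = 1.11e-06). The DNA methyltransferases split, with Dnmt3a at 0.72 ± 0.19 (adjusted p = 0.0305) and Dnmt3b at -0.70 ± 0.16 (adjusted p = 0.0129); without the block their adjusted p-values were 0.293 and 0.372, and without the arrays numbered 3 that of Dnmt3a was 0.242. Of 19 p53 targets, 3 rose (Trp53inp1, Gadd45a, Btg2) and 0 fell, a share of 15.8% against 8.94% of all genes, with a median of 0.05. Without the block 1 of them rose, and the adjusted p was 0.492 for Gadd45a and 0.607 for Btg2.

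Promoters were searched for short motifs in the window from 250 bases before to 50 after each start (RefSeq, GRCm38.p6; 542 of 650 genes that rose, 780 of 977 that fell and 14452 of 18193 in all). The E-box CACGTG, bound by MYC and MAX, stood in 13.6% of promoters of genes that fell and 6.64% of those that rose, against 9.02% of all. The ETS motif CCGGAAG stood in 11.2% of promoters of genes that fell and 18.6% of those that rose, against 13.8% of all. Differences were smaller for TGANTCA (AP-1; 6.67%, 4.98% and 6.33% of genes that fell, that rose and of all), GGGANNNCC (NF-kB-like; 25.3%, 22.3% and 22.2%), TGTGGT (RUNX; 12.3%, 13.1% and 13.7%) and the TATA box TATAAA (7.95%, 6.09% and 9.87%). These shares are descriptions with no test, and the sets differ in other ways, such as base composition, that were not examined. The sets are the calls of the blocked model with all arrays, and the shares were not computed for the calls of the alternatives.

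Few differences were seen between the control compound and the solvent. Between Control-768 and DMSO, 0 of 18193 genes passed (0%), with 558 genes (3.07%) at an unadjusted p under 0.05 in limma and 0 or 1 gene under the alternatives. The median half-width of the 95% interval was 0.328 in this comparison, so smaller differences of single genes were not detectable with 3 arrays a group. Against Control-768 alone 1007 genes changed (5.54%), of which 402 rose (2.21%) and 605 fell (3.33%). Against DMSO alone 1105 changed (6.07%), of which 402 rose (2.21%) and 703 fell (3.86%). These comparisons share the 3 I-BET-762 arrays. They called 864 genes in common, 85.8% of those against Control-768 and 78.2% of those against DMSO. For Ccl3 the change of Control-768 against DMSO was 0.09 ± 0.36, with a 95% interval of -0.67 to 0.86, for Ifitm3 -0.01 ± 0.27, with -0.58 to 0.56, and for Myc 0.10 ± 0.20, with -0.33 to 0.52.

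At 0.25 µM, fewer genes passed against the same 6 control arrays. There 217 genes changed (1.19%), 68 higher (0.374%) and 149 lower (0.819%). Both sets of changes share their control arrays. The step between the concentrations sets the 3 arrays at 0.5 µM against the 3 at 0.25 µM, in the model of all 24 arrays: 211 genes differed (1.16%), 59 higher (0.324%) and 152 lower (0.835%) at 0.5 µM than at 0.25 µM. This count depends on the arrays in the fit, and with the 2 groups alone it was 0.

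Genes differed in how much of the change was present at the lower concentration. Klf3 was at 197, 149.5 and 74.7 with 0.25 µM and 471, 372 and 480.1 with 0.5 µM, with log2 changes of 0.19 ± 0.18 and 1.82 ± 0.18 against controls and a step of 1.62 ± 0.20 (adjusted p = 0.0011). Atf3 had a change of -0.02 ± 0.17 at 0.25 µM and a step of -1.17 ± 0.20 (adjusted p = 0.00873), and Rapgef5, an exchange factor of RAP proteins, -0.44 ± 0.17 and -1.84 ± 0.19 (adjusted p = 0.000658). For these, little of the change was seen at the lower concentration. For Cyp2s1, a cytochrome P450, the change was -1.04 ± 0.07 at 0.25 µM, and the step was -0.06 ± 0.09 (adjusted p = 0.836, 95% interval -0.24 to 0.13). Ifitm1 had -2.33 ± 0.13 at 0.25 µM and a step of 0.23 ± 0.15 (95% interval -0.09 to 0.55), Itga7 -1.63 ± 0.17 and 0.05 ± 0.20 (95% interval -0.37 to 0.48), and Pls1 2.14 ± 0.22 and 0.34 ± 0.25 (95% interval -0.20 to 0.88). Lag3, Cysltr1, Igfbp4 and Ebi3 lay between: for Lag3 the values were 1.31 ± 0.18 and a step of 1.42 ± 0.21 (adjusted p = 0.0028), and for Cysltr1 -1.73 ± 0.20 and -2.19 ± 0.23 (adjusted p = 0.000658). Hexim1 and Myc did not pass at 0.25 µM, with 0.07 ± 0.11 (adjusted p = 0.942) and -0.21 ± 0.17 (adjusted p = 0.821), and their steps to 0.5 µM did not pass either (0.53 ± 0.12, adjusted p = 0.0553, and -0.60 ± 0.20, adjusted p = 0.179). The ribosome biogenesis list had a median of 0.06 at 0.25 µM.

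**Figure D4:**
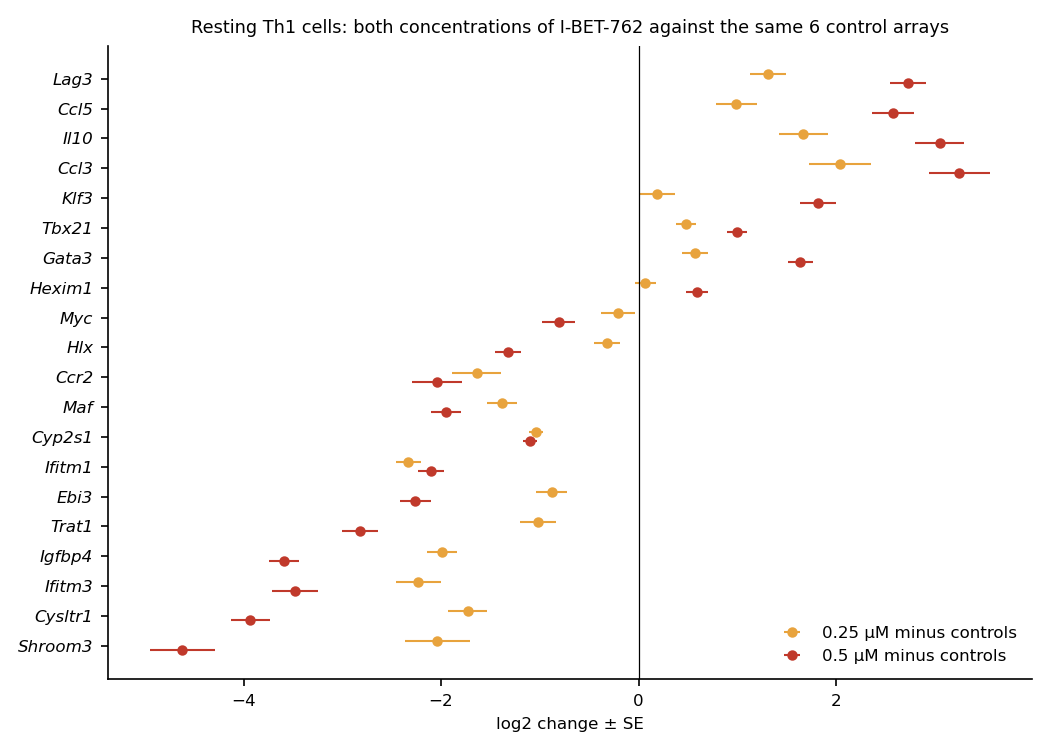
Log2 change ± SE against the 6 control arrays for 20 genes in resting cells at 0.25 µM (orange) and 0.5 µM (red) I-BET-762. Klf3 and Hlx moved mostly at the higher concentration, while the points of Cyp2s1 and of Ifitm1 lie close together.

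The same concentration was also measured in activated cells, on other arrays. There 1008 genes changed with 0.5 µM I-BET-762 (5.54%): 437 rose (2.4%) and 571 fell (3.14%). In all, 578 genes changed in both states, 35.5% of those in resting cells and 57.3% of those in activated cells, and 575 of them went the same way. The 3 exceptions were Iigp1, Nab2 and Ddn. Cysltr1 (-3.93 ± 0.20 in resting and -4.07 ± 0.20 in activated cells), Mycn (-3.19 ± 0.18 and -3.16 ± 0.18), Acsl6 (-2.97 ± 0.25 and -2.92 ± 0.25) and Trat1 (-2.82 ± 0.18 and -2.83 ± 0.18) had close values in both. Whether the change differed between the states was tested by the interaction: 49 genes passed (0.269%), 22 with a higher value in resting cells (0.121%) and 27 with a lower one (0.148%), and 32 had the larger change in resting cells. That count was 0 without the block.

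Several genes of the resting response belonged to these 49. Egr2 changed by 2.16 ± 0.20 in resting and 0.13 ± 0.20 in activated cells, a difference of 2.03 ± 0.29 (adjusted p = 0.0112). In activated cells Egr2 was at 1307, 1846 and 4585 with I-BET-762, against 919 to 3960.4 (median 1871) in controls, where it was already high. Ccl3 changed by 3.25 ± 0.31 and 0.86 ± 0.31, a difference of 2.38 ± 0.44 (adjusted p = 0.0442), and Tbx21 by 1.0 ± 0.10 and 0.29 ± 0.10, a difference of 0.71 ± 0.14 (adjusted p = 0.0469). Nab2, a corepressor of EGR factors, rose in resting cells (0.54 ± 0.12) and fell in activated cells (-0.55 ± 0.12), a difference of 1.09 ± 0.17 (adjusted p = 0.0219). Iigp1, an interferon-induced GTPase, did likewise, with 0.85 ± 0.19 and -1.06 ± 0.19 and a difference of 1.90 ± 0.27 (adjusted p = 0.0112).

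Other genes of the 49 had the larger change in activated cells or fell further at rest. Il13, a Th2 cytokine, was near the bottom of the scale in resting cells, with 9.35, 8.24 and 13.5 in I-BET-762 cells, against 10.3 to 18.4 (median 12.8) in control cells. In activated cells it had 1643, 789 and 5738 with I-BET-762, against 116 to 1314 (median 207) in controls. The changes were -0.17 ± 0.18 in resting and 2.55 ± 0.18 in activated cells, a difference of -2.72 ± 0.26 (adjusted p = 0.000378). Klrc1 (NKG2A) was dim at rest and changed by -0.65 ± 0.18 and -2.34 ± 0.18, and Stra6, a retinol transporter, by -0.31 ± 0.17 and -1.98 ± 0.17. Kctd14 fell at rest (-1.47 ± 0.14) with 0.32 ± 0.14 in activated cells, a difference of -1.79 ± 0.20 (adjusted p = 0.00203). Rgcc, a cell cycle regulator, fell further at rest, with -1.34 ± 0.08 and -0.41 ± 0.08 and a difference of -0.93 ± 0.11 (adjusted p = 0.00203), as did Dipk1b, Ubtd1, Cyp2s1 and Tmem108. Without the block the changes at rest did not pass for Nab2 (adjusted p = 0.223), Iigp1 (0.596), Ddn (0.458), Klrc1 (0.155) and Kctd14 (0.09). For Ifng and Myc the interaction did not pass, with differences of 0.82 ± 0.28 (adjusted p = 0.305, 95% interval 0.23 to 1.42) and -0.90 ± 0.24 (adjusted p = 0.176, 95% interval -1.42 to -0.38).

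**Figure D5:**
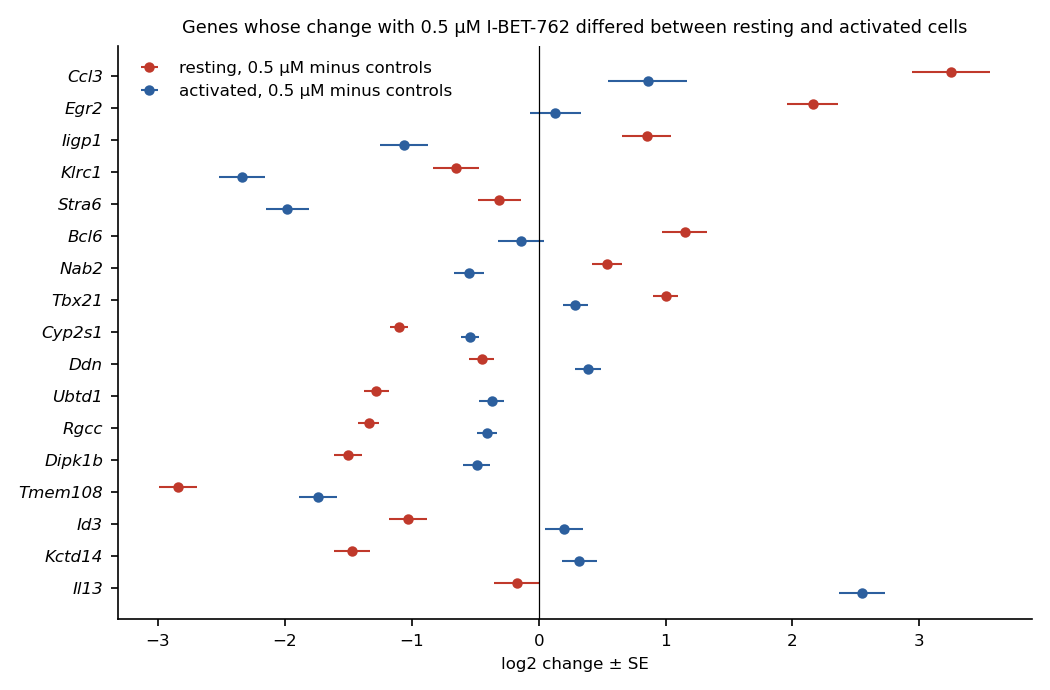
Log2 change ± SE with 0.5 µM I-BET-762 against the 6 control arrays of each state, in resting (red) and activated (blue) cells, for the 17 named genes whose change differed between the states. Iigp1, Nab2 and Ddn, which passed in both states, lie on opposite sides of 0, and Il13 changed in activated cells only.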

How the data were processed

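Per the labels' protocols, RNA was extracted with an RNeasy kit, amplified for 2 rounds and biotin labelled, which can bias transcripts toward their 3' ends; the 3' minus 5' log2 difference of Gapdh was -0.02 to 0.06 in I-BET-762 arrays and -0.04 to 0.09 in control arrays. The authors deposited 1 linear intensity for each of 45101 probe sets; no source used here states how they were summarized or normalized. The platform table named 1 gene for 34945 probe sets, more than 1 for 932 and no gene for 9160; 64 controls were dropped. Of those with 1 gene, 34741 were matched by Entrez number to the RefSeq gene table. Each gene took its brightest probe set by the mean over 24 arrays, which left 18193 genes, 9010 of them with several probe sets. The values were transformed as log2(intensity + 16).

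In limma 3.58.1 (R 4.3.3) all 24 arrays entered 1 model with 8 group means and the replicate number within each state as a fixed block (12 residual and 3.35 prior degrees of freedom). Tests were two-sided with Benjamini-Hochberg adjustment. Precision is limited by how many arrays there are, and the median 95% interval reached 0.284 to either side. The numbers come from the sample titles. They were taken as pairing the samples, and the deviations from group means correlated in all 9 same-number pairs (0.197 to 0.699). Because the deviations of a gene cancel within each group of 3 arrays, an array that stands apart in every group gives such correlations for the other numbers too. Pairs of different numbers were not computed, so the correlations cannot show that every number pairs the samples. The script was tested on simulated data.

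The genes, 47 gene lists and comparisons were chosen with earlier results of these data known. Named are 12 genes fixed in advance of this model, the 12 largest rises and falls without overlap (placeholder symbols passed over), up to 3 members per list with the smallest adjusted p, and the 5 with the smallest p per direction in each other comparison. Other list members named beside counts, and Egr1, Zbp1, Il3, Ifitm2, Ifitm6 and Ddn, were chosen after their values were seen. Alternatives were another block, other arrays in the fit, other constants, a filter on dim genes (mean under 50), quantile normalization, other probe set rules, an intensity trend, either control alone and leaving out each replicate. Promoters came from a RefSeq table (GRCm38.p6), the first entry per gene.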

Additional observations from a re-analysis of the deposited data

Results flagged for a closer look

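In 3 of 130 named genes, the array numbered 3 of the DMSO group lay far below the other 5 of the 6 control arrays by Dixon's test: Atf3 at 382.3 (others from 542.2), Ell2 at 603.2 (others from 723.3) and Socs3 at 948 (others from 1241.2). The control arrays numbered 3 of DMSO and Control-768 deviated together over all genes (correlation 0.699). Dixon's test can miss arrays that deviate together, so the count of 3 cannot be set against a chance rate. Whether this DMSO array differs from the others was not tested.

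For 17 named genes the change with 0.5 µM I-BET-762 differed between resting and activated cells in the interaction test. The differences, resting minus activated, were positive for Ccl3 (2.38), Egr2 (2.03), Iigp1 (1.9), Klrc1 (1.69), Stra6 (1.67), Bcl6 (1.28), Nab2 (1.09) and Tbx21 (0.71). They were negative for Il13 (-2.72), Kctd14 (-1.79), Id3 (-1.22), Tmem108 (-1.11), Dipk1b (-1.02), Rgcc (-0.93), Ubtd1 (-0.91), Ddn (-0.84) and Cyp2s1 (-0.56). Adjusted p-values lay between 0.000378 for Il13 and 0.0496 for Bcl6 (limma).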

How the results depend on the processing

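With no replicate block, the changed genes numbered 491 in the main comparison (of 1627), 24 at 0.25 µM, 12 for the step between concentrations and 0 for the interaction; with the block over both states they were 904, 108, 76 and 2. With resting arrays alone there were 124 at 0.25 µM and 86 for the step, and with the compared groups alone 711 in the main comparison and 0 for the step. Against Control-768 alone the main comparison had 1007. Leaving out a replicate gave 421 to 1806 changed genes in the main comparison, 11 to 284 at 0.25 µM, 5 to 444 for the step, 0 to 53 for the interaction and 0 to 1 between Control-768 and DMSO. A constant of 1, a constant of 64 and the filter on dim genes gave 139, 326 and 384 for the step and 9, 111 and 100 for the interaction. The interaction had 28 without _x_at and _s_at probe sets and 83 with an intensity trend. The mean of all probe sets gave 1 gene between Control-768 and DMSO. The causes were not tested.

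Of 121 named genes changed in the main comparison, 55 passed in all 25 alternatives. The sign turned under another probe set for Bcl2l2 (0.02), Cd247 (-0.30), Dnmt3a (-0.05), Irf4 (-0.30), Itga3 (0.11), Klf3 (-0.10), Maf (0.04), Mycn (0.13 and 0.13), Prf1 (-0.22), Rora (0.10), Tmem108 (0.75 and 0.11) and Tox2 (-0.20, also without _x_at and _s_at probe sets). Of genes named beside list counts, it turned in the same way for Bcl2 (0.18 and 0.04), Cxcl11 (0.51), Itgav (0.10 and 0.24), Itga4 (-0.16) and Itgb1 (-0.03). Of genes that did not pass, it turned for Il17a (-0.12 to 0.26 over left-out replicates, -0.12 against Control-768 alone, -0.02 without the number 3, -0.12 without Control-768 replicate 3, -0.03 without DMSO replicate 2), Il2 (-0.32 to 0.20 over left-out replicates, 0.01 against Control-768 alone, 0.20 without the number 2, 0.14 without I-BET-762 replicate 2) and Il21 (0.19). Of 136 other probe sets of changed named genes, 122 went the same way (74 past the threshold) and 14 the other way (0 past it). Between 29.1% and 30.8% of probe sets lay under 16, where changes are compressed.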
